A study of Homo sapiens with 6 samples.

Results

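The 10 genes described here encode proteins of the extracellular microfibril and the fibulins that sit on it: LTBP1, LTBP2, LTBP3 and LTBP4, the fibrillin genes FBN1 and FBN2, and the fibulin genes FBLN1, FBLN2, FBLN5 and EFEMP1. They were taken by gene symbol from a deposited count table of 58735 genes, and each symbol matched 1 row. RNA was sequenced from the human cell line ARPE-19, which derives from retinal pigment epithelium (RPE), in 3 libraries of cells overexpressing CD51-ICD (OE CD51 ICD) and 3 control libraries (NC), whose genotype is labelled WT. ITGAV encodes CD51, the alpha V chain of several integrins. The series title names signalling from SPP1 to ITGAV between microglia and RPE, epithelial-mesenchymal transition and dry macular degeneration, and the question for these genes is how they differ when the CD51 fragment is overexpressed. The labels give no vector, time after transfer, clone or culture number for either group, so p-values reflect how far these libraries scatter, and that scatter may be technical only.

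Fibrillins are long, cysteine-rich glycoproteins that assemble into microfibrils, and microfibrils serve both as the scaffold of elastic fibres and as a store of growth factors. TGF-beta is secreted in a latent form, with its propeptide bound to it, and LTBP1, LTBP3 and LTBP4 tether that latent complex to the matrix, from which alpha V integrins, proteases and thrombospondin 1 can release it. LTBP2 lacks this binding to latent TGF-beta and is known for its part in microfibrils of the ciliary zonule of the eye. Fibulins bridge microfibrils, elastin and basement membranes, and a mutation of EFEMP1, which encodes fibulin-3, causes an inherited macular dystrophy with deposits under the RPE.

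The promoters of the 4 members that rose by at least 2-fold, and of FBN2, the fibrillin gene that fell, are shown so that the letters around their annotated starts can be compared. The sequences are those of RefSeq on GRCh38.p14 and run from 250 bases before to 50 bases after the annotated start, on the strand of the gene. For LTBP1 and FBLN5, which have further annotated starts, the window at the outermost start is given. Capitals mark matches on either strand to a set of motifs: the AP-1 site TGANTCA, the cAMP response element TGACGTCA, the TEAD site GGAATG, the SMAD box CAGAC, the TATA box TATAAA and the CArG box.
LTBP1: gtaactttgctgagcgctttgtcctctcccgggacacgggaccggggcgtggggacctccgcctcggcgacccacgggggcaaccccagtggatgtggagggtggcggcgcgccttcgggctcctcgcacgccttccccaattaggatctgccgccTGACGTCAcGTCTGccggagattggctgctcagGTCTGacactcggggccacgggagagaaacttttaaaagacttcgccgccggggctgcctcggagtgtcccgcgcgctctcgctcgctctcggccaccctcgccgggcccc
LTBP2: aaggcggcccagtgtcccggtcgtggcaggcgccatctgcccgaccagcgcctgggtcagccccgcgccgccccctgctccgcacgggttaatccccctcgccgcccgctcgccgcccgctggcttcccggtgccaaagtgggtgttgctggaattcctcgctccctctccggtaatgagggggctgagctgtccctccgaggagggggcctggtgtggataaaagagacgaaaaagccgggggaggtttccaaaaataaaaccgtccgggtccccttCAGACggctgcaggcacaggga
FBN1: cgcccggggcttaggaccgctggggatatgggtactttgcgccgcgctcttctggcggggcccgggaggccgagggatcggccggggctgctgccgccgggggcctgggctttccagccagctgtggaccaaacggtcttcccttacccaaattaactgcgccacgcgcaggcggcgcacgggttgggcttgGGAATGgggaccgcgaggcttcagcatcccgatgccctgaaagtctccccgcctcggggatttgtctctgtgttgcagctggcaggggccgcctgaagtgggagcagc
FBN2: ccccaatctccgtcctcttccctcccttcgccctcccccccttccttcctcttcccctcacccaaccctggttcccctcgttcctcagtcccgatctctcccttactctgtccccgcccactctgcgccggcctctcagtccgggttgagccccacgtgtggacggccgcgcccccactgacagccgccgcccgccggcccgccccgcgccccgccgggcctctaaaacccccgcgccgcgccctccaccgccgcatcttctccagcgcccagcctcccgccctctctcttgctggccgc
FBLN5: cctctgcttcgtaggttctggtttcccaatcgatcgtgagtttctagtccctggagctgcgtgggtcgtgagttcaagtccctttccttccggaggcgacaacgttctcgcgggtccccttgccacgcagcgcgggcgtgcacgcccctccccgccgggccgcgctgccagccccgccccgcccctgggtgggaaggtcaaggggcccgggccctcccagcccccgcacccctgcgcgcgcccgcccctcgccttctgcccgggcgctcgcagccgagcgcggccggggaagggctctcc

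The windows lie at chr2:32946703-32947002 on the plus strand for LTBP1, chr14:74612188-74612487 on the minus strand for LTBP2, and chr15:48644921-48645220 on the minus strand for FBN1. Those of FBN2 and FBLN5, both on the minus strand, lie at chr5:128538196-128538495 and chr14:91947645-91947944. All 5 were rich in G and C, at 67.0% to 73.0%. The LTBP1 window held the cAMP response element at position -94, which 1.85% of 35114 RefSeq promoter windows of this length hold. It also held the SMAD box at positions -85 and -61, and the LTBP2 window held that box at position 29, but 45.3% of all windows do. The FBN1 window held the TEAD site at position -58, against 14% of all windows. None of these motifs was matched in the FBN2 window or in this FBLN5 window. The other FBLN5 window held a SMAD box at position -145 and a TATA box at position -33, the latter against 11.5% of all windows. There was no AP-1 site or CArG box in any window of the 9 members that had one. A match is a string of letters, and binding was not measured.

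Total counts ran from 14577912 to 15640428 in OE CD51 ICD and from 13616694 to 16934668 in NC. ITGAV, the check of the labels, had 436, 536 and 371 CPM (counts scaled to library size) in the OE CD51 ICD libraries and 113, 92.7 and 89.4 CPM in the NC libraries, and whether these reads come from the construct or the endogenous gene was not tested. Of 12 RPE markers, RPE65 and TTR had no count in any library, while OTX2 averaged 28.9 ± 3.12 and 27.8 ± 2.63 CPM and KRT8 3461 ± 237 and 3718 ± 189 CPM in OE CD51 ICD and NC (SD, n = 3 each). Of the 8 RPE markers tested, 2 were higher, 2 lower and 4 did not pass, where 25.2% of all tested genes were higher and 25.8% lower. The visual cycle gene RDH5 was at 2.49 ± 0.41 CPM in OE CD51 ICD and 6.24 ± 0.81 CPM in NC (log2 -1.33), and MITF, a pigment cell transcription factor gene, was also lower (log2 -0.56). PMEL and RLBP1 were higher (log2 0.80 and 0.81). Summed over 7 microglial or macrophage markers, levels were 0.429 to 0.957 CPM in OE CD51 ICD and 0.463 to 0.496 CPM in NC. Summed levels of 7 fibroblast markers were 375 to 416 CPM in OE CD51 ICD and 213 to 238 CPM in NC. Of these 7, PDGFRB was the 1 tested and made up nearly all of the sum, DCN had no count in any library, and the other 5 had 2 to 13 counts over OE CD51 ICD and 0 to 9 over NC. THY1 had 2 counts over OE CD51 ICD and 7 over NC, and LUM, COL1A2, PDGFRA and COL3A1 had more counts over OE CD51 ICD. The part of these markers in the results below was not tested. In bulk RNA, fewer cells of a type and less RNA per cell cannot be told apart.

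LTBP2, FBLN5, LTBP1 and FBN1 rose 5.67-, 5.82-, 3.99- and 2.80-fold in OE CD51 ICD, and LTBP3 and LTBP4 rose by less than 2-fold. FBN2 fell to 0.740 times its NC level, and FBLN2, at a much lower level, was also called lower. FBLN1 and EFEMP1 did not pass the test. All 10 members passed the low-count filter, and 6 were higher and 2 lower at an adjusted p under 0.05 in edgeR's quasi-likelihood test, where 25.2% of 13787 tested genes were called higher, 25.8% lower and 51.0% either way. Past a 2-fold change there were 4 members higher and 0 lower, against 6.89% and 5.83% of tested genes. Since the members were chosen with results of these data known, these counts describe them and are no test of the group. Their median log2 fold change was 0.56, and that of all tested genes was 0.01. The 10 genes took 0.406% to 0.431% of all counts in OE CD51 ICD and 0.199% to 0.216% in NC.

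**Figure D1:**
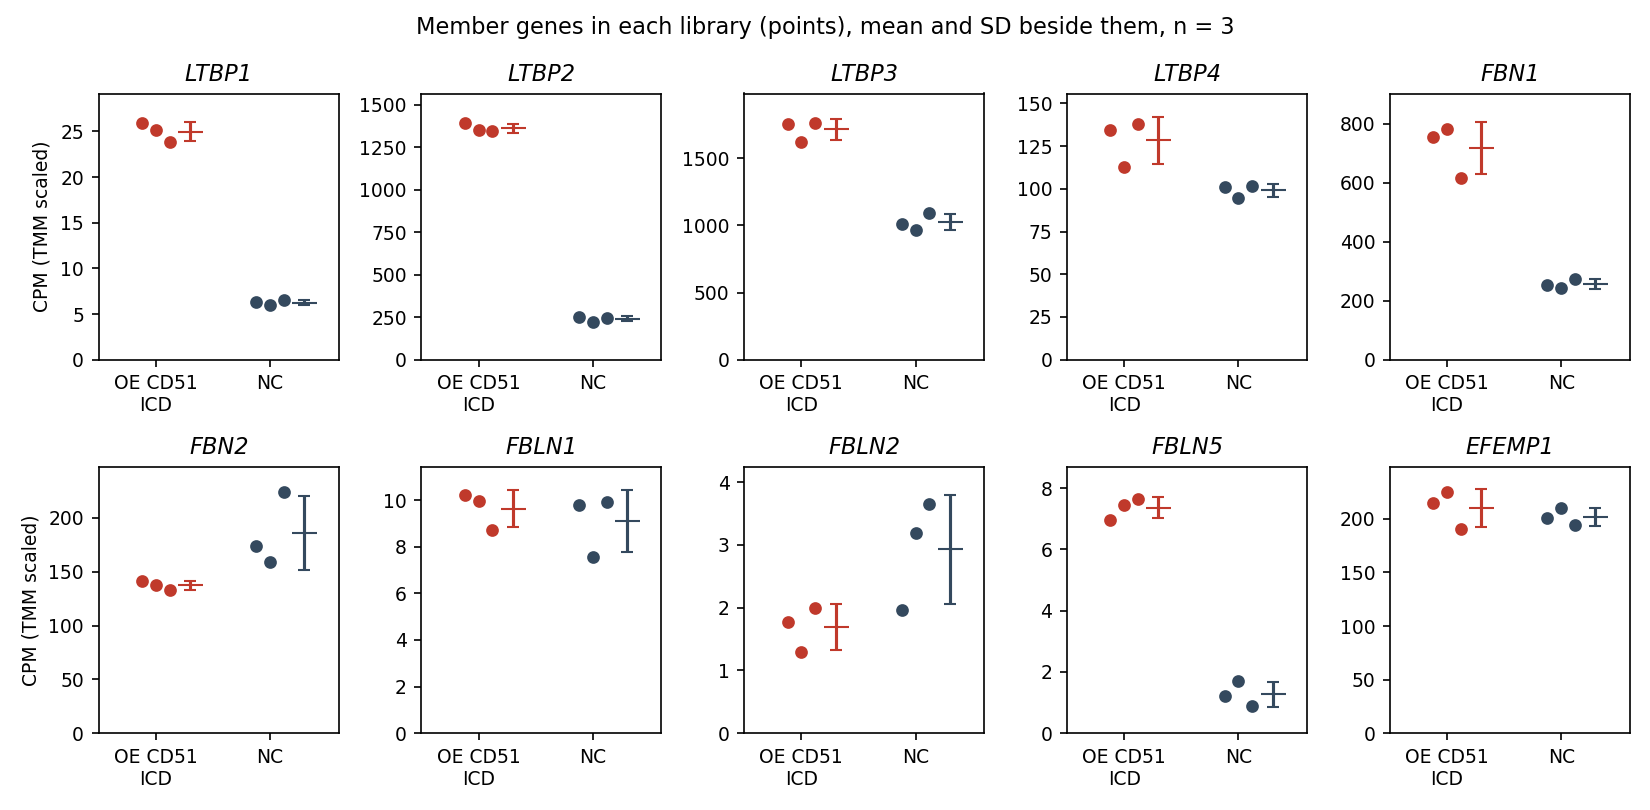
Levels of the 10 member genes in CPM (y axes from 0, one panel per gene, with scales that differ between panels), for OE CD51 ICD and NC libraries (points, 3 per group), with the mean and SD at the side. The groups stand apart for all 4 LTBP genes, both fibrillin genes and FBLN5, and overlap for FBLN1, FBLN2 and EFEMP1.

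Among the proteins that hold latent TGF-beta, LTBP1 showed the steepest change. LTBP1 (ENSG00000049323, chromosome 2, 32946972 to 33399509, GRCh38) had 25.9, 25.2 and 23.8 CPM in the OE CD51 ICD libraries, against 6.31, 5.95 and 6.49 CPM in the NC libraries. Each OE CD51 ICD library was at least 3.67 times as high as the highest NC library. The log2 fold change was 2.0 ± 0.14 (SE, adjusted p = 9.54e-13). The number of counts behind this was modest, 1094 over OE CD51 ICD and 289 over NC. The antisense gene AC019127.1 shares 249 exonic bases with LTBP1 and had no count in any library.

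LTBP3 (ENSG00000168056, chromosome 11, 65538805 to 65558930) was the most abundant member in every library. It binds latent TGF-beta of all isoforms and is known for its part in bone and tooth. Its level was 1754, 1623 and 1766 CPM in OE CD51 ICD and 1013, 969 and 1090 CPM in NC, so the groups did not overlap. The log2 fold change was 0.74 ± 0.08 (SE, adjusted p = 3.13e-09). Tested genes of chromosome 11 were called higher in 40.4% of cases, with a median log2 fold change of 0.21, and the part of this in the LTBP3 value was not tested. Transcripts rich in G and C went the other way: the fifth of tested genes with the highest GC content had a median of -0.27, and the longest LTBP3 transcript has 67.8% GC. With each library's GC trend removed, LTBP3 had a log2 fold change of 1.04.

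LTBP4 (ENSG00000090006, chromosome 19, 40592883 to 40629818), which binds latent TGF-beta 1 and works with fibulins in elastic fibre assembly, rose least of the family. It had 134, 113 and 138 CPM in the OE CD51 ICD libraries, against 101, 94.7 and 101 CPM in the NC libraries. The groups did not overlap, but OE CD51 ICD replicate 2 was only 1.11 times as high as the highest NC library. The log2 fold change was 0.37 ± 0.09 (SE, adjusted p = 6.82e-04), on a chromosome whose tested genes had a median of -0.18 and were called higher in 15.0% of cases. LTBP4 is rich in GC at 66.7%, and the value with the GC trend removed was 0.65 (adjusted p = 1.22e-07, and 1.22e-07 to 0.047 over its alternatives).

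LTBP2, the family member that does not bind latent TGF-beta, rose by the largest amount in CPM of all 10 genes. LTBP2 (ENSG00000119681, chromosome 14, 74498170 to 74612378) was at 1392, 1349 and 1346 CPM in the OE CD51 ICD libraries and at 250, 223 and 248 CPM in the NC libraries. The lowest OE CD51 ICD library stood 5.39 times above the highest NC library. Its log2 fold change was 2.50 ± 0.08 (SE, adjusted p = 5.76e-21), and spread within OE CD51 ICD was small, with a coefficient of variation of 1.90%. By FPKM (fragments scaled to gene length and library size), it stood above 98.2% of tested genes in OE CD51 ICD and above 88.1% in NC.

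Both fibrillin genes changed, and they moved in opposite directions. FBN1 (ENSG00000166147, chromosome 15, 48408306 to 48645849), which encodes the main fibrillin of adult tissue and is mutated in Marfan syndrome, had 756, 783 and 616 CPM in OE CD51 ICD and 254, 243 and 274 CPM in NC. OE CD51 ICD replicate 3 was the lowest of its group and still 2.25 times as high as the highest NC library. The log2 fold change was 1.48 ± 0.09 (SE, adjusted p = 1.17e-14). FBN2 (ENSG00000138829, chromosome 5, 128257909 to 128659185) encodes a fibrillin that is mostly laid down during development. It was at 141, 138 and 133 CPM in OE CD51 ICD, against 174, 159 and 224 CPM in NC.

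For FBN2 the OE CD51 ICD libraries lay close together, below all NC libraries, while NC replicate 3 was well above the other 2. The log2 fold change was -0.44 ± 0.10 (SE, adjusted p = 3.60e-04). Without NC replicate 3 it was -0.28 (adjusted p = 0.0108). A limma fit on log2(FPKM + 1), run without the low-count filter on the 26470 genes with at least 1 count, no longer called FBN2 (adjusted p = 0.0773, and 1.66e-05 to 0.0773 over its alternatives). SLC27A6, on the opposite strand, shares 56 exonic bases with FBN2 and had 19 counts over all libraries.

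With opposite changes in the pair, the balance of fibrillin transcripts differed between the groups. FBN1 FPKM was 4.4, 4.68 and 3.81 times FBN2 FPKM in the OE CD51 ICD libraries, and 1.20, 1.26 and 1.0 times in the NC libraries. By FPKM the pair was near parity in NC replicate 3, and in OE CD51 ICD every library had a clear excess of FBN1. The log2 ratio averaged 2.10 ± 0.15 in OE CD51 ICD and 0.20 ± 0.17 in NC (SD, n = 3 each), a difference of 1.90, which joins the changes of both genes and adds no evidence to them. A two-sided exact permutation test of 3 libraries against 3 cannot go below p = 0.1, so the difference is given as a description. This ratio is taken within a library and does not depend on scaling between libraries. FBN1 and FBN2 have like GC contents in their longest transcripts, 46.7% and 48.0%.

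**Figure D2:**
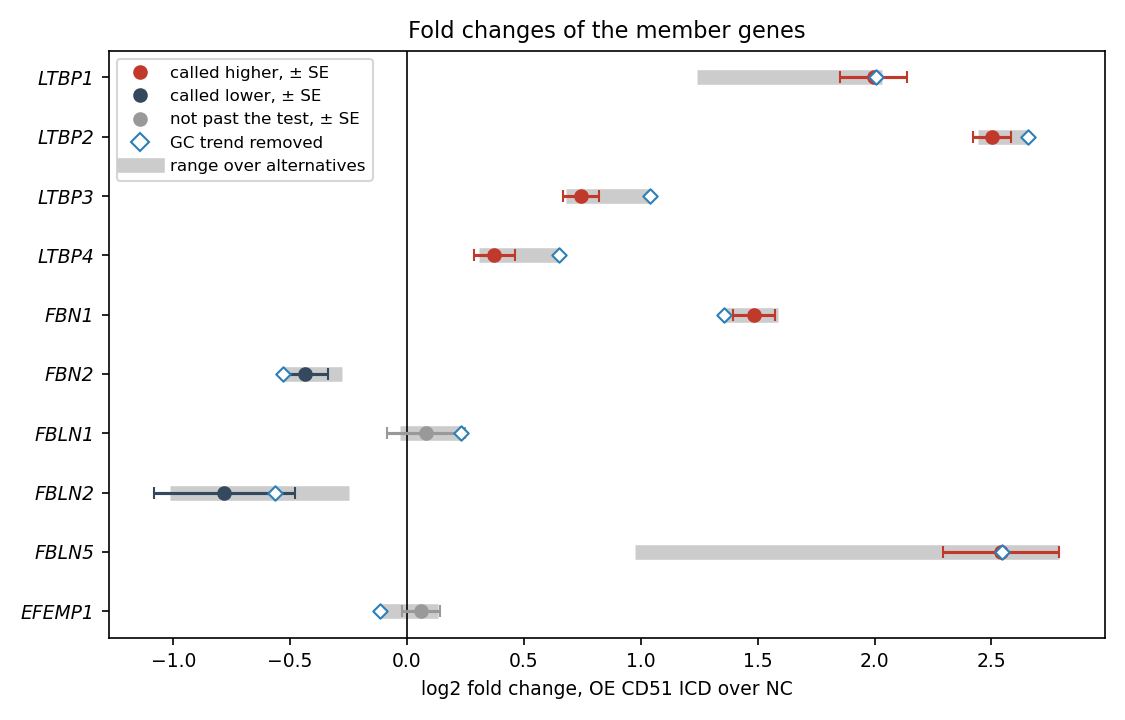
Log2 fold change (x axis, OE CD51 ICD over NC) of each member with its SE, coloured by the call, with open diamonds for the fit with the GC trend removed and grey bars for the range over all alternatives. The bars of FBN1 and FBN2 lie on opposite sides of 0, those of FBLN1 and EFEMP1 reach across 0, and those of LTBP1 and FBLN5 reach far to the left because a pseudocount of 1 FPKM shrinks the change of genes near that level.

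FBLN5 was the fibulin gene with a large change. It encodes fibulin-5, which organises elastic fibres and binds integrins, alpha V integrins among them, through an RGD sequence. FBLN5 (ENSG00000140092, chromosome 14, 91869412 to 91947987) had 106, 109 and 107 counts in the OE CD51 ICD libraries and 21, 24 and 13 counts in the NC libraries. In CPM these were 6.98, 7.45 and 7.65 in OE CD51 ICD, against 1.22, 1.70 and 0.879 in NC, with each OE CD51 ICD library over 4 times as high as the highest NC library. The log2 fold change was 2.54 ± 0.25 (SE, adjusted p = 7.49e-10). At these counts the NC level is the less certain of the pair, with a coefficient of variation of 32.6% in NC and 4.71% in OE CD51 ICD.

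EFEMP1 (ENSG00000115380, chromosome 2, 55865967 to 55924139), the most abundant of the 4 fibulin members, had 215, 225 and 191 CPM in OE CD51 ICD and 201, 210 and 194 CPM in NC. The groups overlapped, and the lowest library of the 6 was in OE CD51 ICD. Its log2 fold change was 0.06 ± 0.08 (SE, adjusted p = 0.556), and it was -0.11 with the GC trend removed (adjusted p = 0.123, and 0.123 to 0.992 over its alternatives).

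FBLN1 (ENSG00000077942, chromosome 22, 45502238 to 45601135) encodes fibulin-1, a protein of basement membranes and elastic fibres. It had 10.2, 9.98 and 8.73 CPM in OE CD51 ICD, against 9.78, 7.58 and 9.94 CPM in NC. The summed count was 423 in each group, and the log2 fold change was 0.08 ± 0.17 (SE, adjusted p = 0.710). FBLN2 (ENSG00000163520, chromosome 3, 13549131 to 13638422) encodes fibulin-2, which binds fibrillin-1 and versican. It had 27, 19 and 28 counts in OE CD51 ICD and 34, 45 and 54 counts in NC.

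In CPM, FBLN2 was at 1.78, 1.30 and 2.0 in OE CD51 ICD and at 1.97, 3.19 and 3.65 in NC, and OE CD51 ICD replicate 3 was above NC replicate 1. Its log2 fold change was -0.78 ± 0.30 (SE, adjusted p = 0.0312). The call was lost under DESeq2, with the GC trend removed and without any 1 of NC replicates 2 and 3 and OE CD51 ICD replicates 1 and 2 (adjusted p = 0.0629, 0.116, 0.0913, 0.152, 0.0540 and 0.134, and 0.00728 to 0.190 over its alternatives). With 74 counts over OE CD51 ICD and 133 over NC, it was the member with the fewest reads in OE CD51 ICD.

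The groups did not overlap for 7 members, 6 higher and 1 lower, where 57.5% of tested genes did not overlap. Higher in all OE CD51 ICD libraries were the 4 LTBP genes, FBN1 and FBLN5, as were 28.0% of tested genes. The member lower in all of them was FBN2, as were 29.5% of tested genes.

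Levels of different genes were compared in FPKM, which divides by gene length. In OE CD51 ICD the order was LTBP3 (164.5 ± 9.60 FPKM), LTBP2 (148 ± 3.65), EFEMP1 (52.5 ± 3.85), FBN1 (44.2 ± 5.07), LTBP4 (15.7 ± 1.84), FBN2 (10.3 ± 0.30), LTBP1 (3.36 ± 0.13), FBLN5 (1.46 ± 0.07), FBLN1 (1.31 ± 0.10) and FBLN2 (0.348 ± 0.08). The ranges of neighbours in that order did not overlap. In NC it was LTBP3 (98.7 ± 6.22 FPKM), EFEMP1 (50.6 ± 1.89), LTBP2 (26.2 ± 1.64), FBN1 (15.9 ± 1.01), FBN2 (13.97 ± 2.64), LTBP4 (12.1 ± 0.48), FBLN1 (1.24 ± 0.18), LTBP1 (0.846 ± 0.04), FBLN2 (0.606 ± 0.18) and FBLN5 (0.252 ± 0.08). There the ranges of FBN1 and FBN2 overlapped, as did those of FBN2 and LTBP4. LTBP2 stood above EFEMP1 in OE CD51 ICD and below it in NC, and FBLN5 was in place 8 in OE CD51 ICD and in place 10 in NC.

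The deposited gene lengths join all exons of all transcripts, which makes FPKM low for genes with many partial transcripts. LTBP3 is divided by 10298 bases although its longest GENCODE 29 transcript has 4443, and FBLN1 by 7285 although its longest has 2896. With CPM per kilobase of the longest transcript, a scale chosen after seeing the data, LTBP3 was at 386 ± 17.8 in OE CD51 ICD and 231 ± 13.8 in NC. LTBP2 was then at 159 ± 3.01 in OE CD51 ICD and 28.0 ± 1.73 in NC. On that scale FBLN1 came before FBLN5 in OE CD51 ICD, and LTBP4 before FBN2 in NC, in each case with ranges that overlapped. The ranges of EFEMP1 and FBN1 in OE CD51 ICD, and of FBLN2 and FBLN5 in NC, also overlapped there. Those of FBN1 and FBN2 in NC, which overlapped by FPKM, did not on that scale (FBN1 lowest 20.67, FBN2 highest 20.16). In NC replicate 3, FBN1 then made up 53.6% of the fibrillin pair.

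Within the LTBP family the transcript mix shifted towards LTBP2. Summed FPKM of the 4 genes was 341, 315 and 339 in the OE CD51 ICD libraries and 138, 130 and 146 in the NC libraries. LTBP2 made up 44.7% ± 1.16 of that sum in OE CD51 ICD and 19.0% ± 0.62 in NC (SD, n = 3 each). LTBP3 made up 49.6% ± 0.86 in OE CD51 ICD and 71.6% ± 0.79 in NC, and LTBP1 made up 0.957% to 1.06% in OE CD51 ICD and 0.604% to 0.619% in NC. Per kilobase of the longest transcript, the LTBP2 share was 26.8% to 28.7% in OE CD51 ICD and 9.79% to 10.5% in NC.

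The fibrillin sum was 57.3, 57.6 and 48.4 FPKM in OE CD51 ICD, against 28.7, 26.9 and 33.9 FPKM in NC, and the FBN1 share of it was 81.0% ± 1.64 in OE CD51 ICD and 53.4% ± 3.0 in NC (SD, n = 3 each). For the fibulin members the sum was 57.0, 58.4 and 51.2 FPKM in OE CD51 ICD and 52.3, 54.6 and 51.1 FPKM in NC, with groups that overlapped. EFEMP1 gave 94.4% ± 0.47 of it in OE CD51 ICD and 96.0% ± 0.43 in NC, and FBLN5 gave 2.65% ± 0.31 in OE CD51 ICD and 0.476% ± 0.14 in NC. No test was made on these sums and shares, since the members were chosen.

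**Figure D3:**
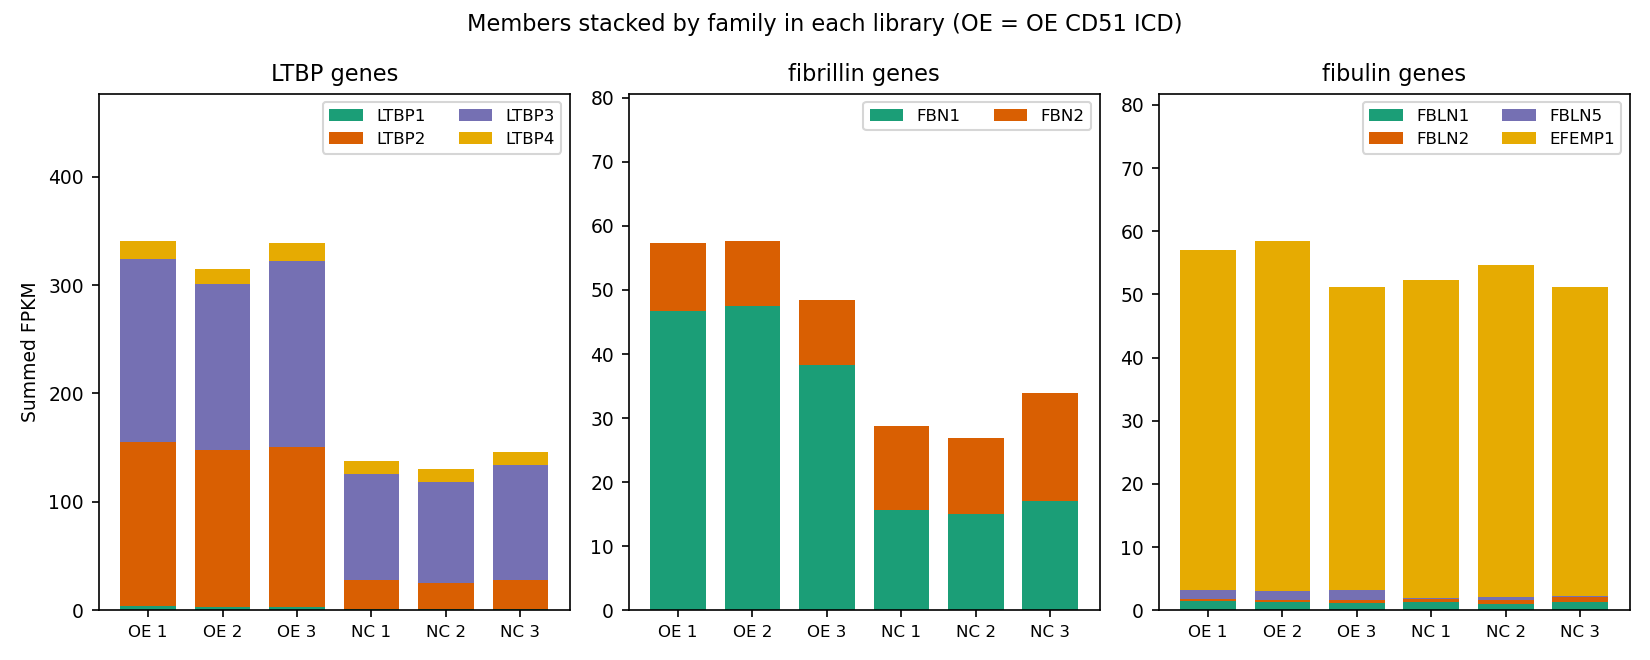
Summed FPKM (y axes from 0) of the members of each family, stacked by gene, in the 3 OE CD51 ICD libraries and the 3 NC libraries. LTBP2 takes 44.7% of the LTBP sum in OE CD51 ICD and 19.0% in NC, FBN1 takes 81.0% and 53.4% of the fibrillin sum, and EFEMP1 dominates the fibulin members in all libraries.

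Of 5 further fibrillin and fibulin genes, 3 were tested, of which EFEMP2 and HMCN1 were called higher, as were 25.2% of all tested genes. FBN3 and HMCN2 had 2 and 0 counts over OE CD51 ICD and 0 and 3 over NC. EFEMP2, on chromosome 11, encodes fibulin-4, which brings lysyl oxidase to elastin. EFEMP2 was at 451 ± 17.2 CPM in OE CD51 ICD and 376 ± 6.90 CPM in NC (log2 0.26 ± 0.08 SE, adjusted p = 0.00479). On chromosome 11, 40.4% of tested genes were called higher and the median log2 fold change was 0.21. The part of this in the EFEMP2 value was not tested. HMCN1, hemicentin 1, was at 2.98 ± 0.48 and 1.75 ± 0.60 CPM in OE CD51 ICD and NC (adjusted p = 0.0291), and FBLN7 did not pass (log2 0.18, adjusted p = 0.354). The count of 2 higher among 3 tested was 1 under 10 of 18 alternatives.

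All 3 TGF-beta ligand genes, the cargo of the LTBP proteins, rose, as did most but not all tested genes of its release. Of 22 genes for latent TGF-beta, its anchors and its activation, 18 were tested. Of these, 16 were higher, ITGB8 was lower and PLAT did not pass (log2 -0.27, adjusted p = 0.199). Of all tested genes, 25.2% were higher and 25.8% lower. The 16 include ITGAV, whose reads were not told apart between the construct and the endogenous gene. The median log2 fold change of the list, ITGAV included, was 1.35, where all tested genes had 0.01. The ligand gene TGFB3 was at 10.96 ± 0.74 CPM in OE CD51 ICD and 2.44 ± 0.58 CPM in NC, TGFB1 at 196 ± 15.9 and 127 ± 2.04 CPM, and TGFB2 at 267 ± 36.0 and 186 ± 11.9 CPM. LRRC32, which encodes the membrane anchor that some cells use in place of an LTBP, had no count in any library, where a count of 0 allows up to 0.177 to 0.220 CPM. NRROS, the anchor of microglia, had 16 counts over OE CD51 ICD and 34 over NC and was not tested.

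Among genes of that list averaging at least 5 CPM, the largest rises were in matrix enzymes and thrombospondin 1. TGM2, the transglutaminase that crosslinks LTBP1 to matrix, was at 739 ± 32.9 CPM in OE CD51 ICD and 81.7 ± 1.68 CPM in NC. PLAU, which encodes urokinase, MMP2, which encodes a gelatinase, and THBS1, which encodes thrombospondin 1, also rose, with log2 fold changes of 2.95, 2.85 and 2.77. BMP1, the protease that cuts LTBP1 free, had a log2 fold change of 0.88. ITGB8, the beta subunit of an integrin that releases TGF-beta, fell to 4.57 ± 0.61 CPM in OE CD51 ICD, against 14 ± 1.61 CPM in NC. ITGB6, of another such integrin, had 32 counts over OE CD51 ICD and 1 over NC. The remaining beta integrin genes of the list, ITGB1, ITGB3 and ITGB5, were called higher, with log2 fold changes of 1.52, 1.88 and 1.01.

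Partners in the fibre itself were divided. Of 25 genes, 16 were tested, of which 7 were higher, none was lower and 9 did not pass. Among all tested genes, 25.2% were higher and 25.8% lower. The median log2 fold change of the list was 0.29. The crosslinking enzyme genes LOX and LOXL1 were at 1357 ± 122 and 687 ± 41.4 CPM in OE CD51 ICD and at 319 ± 17.2 and 401 ± 9.28 CPM in NC. ADAMTS6, which encodes a protease linked to microfibrils, and FN1, fibronectin, on which fibrillin fibres are built, had log2 fold changes of 3.20 and 2.83. Elastin was nearly absent, with 5 counts of ELN over OE CD51 ICD and 18 over NC, and DCN, BGN and ADAMTSL2 had no count. MFAP2, a microfibril glycoprotein gene named here after its values were seen, had 101 counts over OE CD51 ICD and 6 over NC (adjusted p = 5.39e-07).

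The tested genes of BMP-type growth factors whose propeptides dock on fibrillin went the opposite way to FBN1 and the same way as FBN2. All 3 tested genes of 6 were lower by at least 2-fold, with a median log2 fold change of -2.16. Of all tested genes, 25.8% were lower and 5.83% lower by at least 2-fold. BMP4 was at 20.1 ± 0.53 CPM in OE CD51 ICD and 94.8 ± 5.04 CPM in NC, BMP2 at 3.26 ± 0.71 and 9.95 ± 1.10 CPM, and GDF5 at 1.29 ± 0.43 and 5.76 ± 0.43 CPM. BMP5 and BMP10 had no count, and BMP7 had 3 counts over OE CD51 ICD and 0 over NC.

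Of 8 enzyme genes for the sugars and hydroxyl groups of EGF-like modules, all tested, 2 were higher, none was lower and the other 6 missed the threshold, where 25.2% of all tested genes were higher. The count of lower genes was 2 when only library size set the scaling and with the GC trend removed. KDELC1, which adds glucose to fibrillin and LTBP1 modules, rose to 16.1 ± 0.57 CPM in OE CD51 ICD, against 11.4 ± 1.48 CPM in NC (adjusted p = 0.00466). GXYLT2 rose too, at a lower level (log2 1.62, adjusted p = 1.06e-05). The other 6 had log2 fold changes of -0.16 to 0.25, and the median of the list was 0.15.

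**Figure D4:**
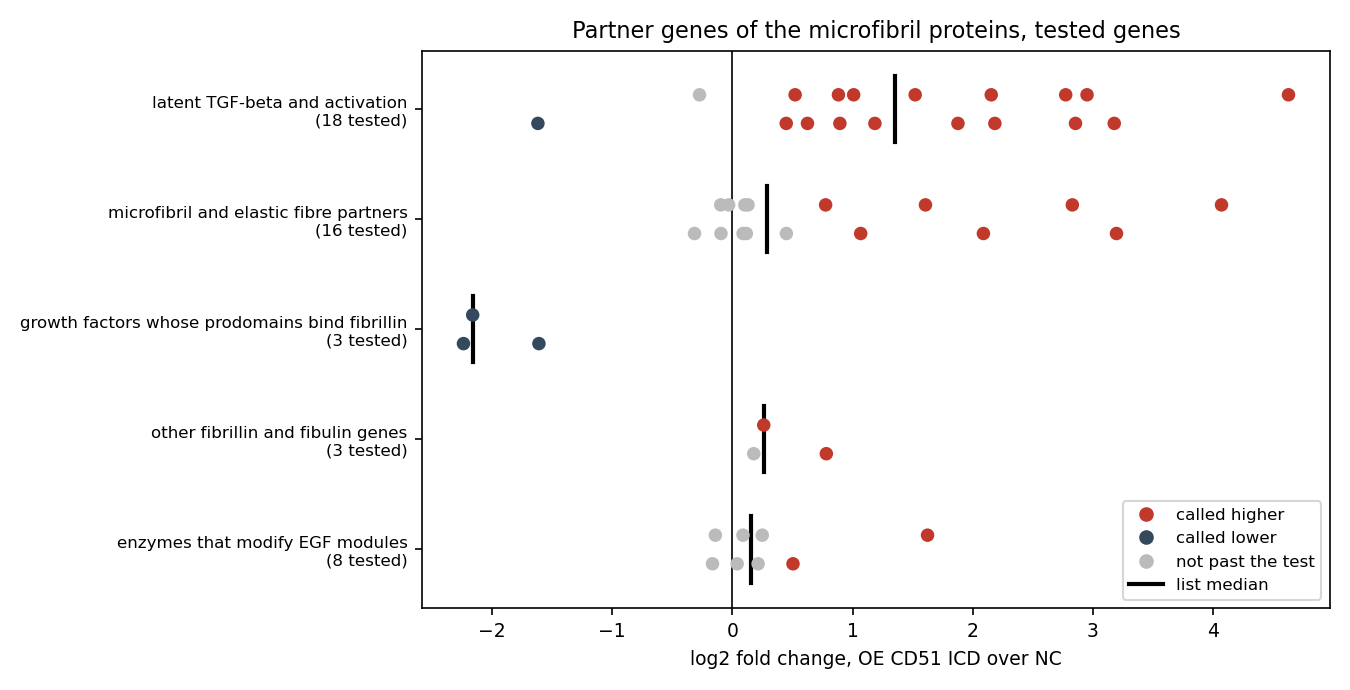
Log2 fold change (x axis, OE CD51 ICD over NC) of the tested genes of 5 partner lists (rows), coloured by the call, with a black bar at each list's median. The latent TGF-beta list lies mostly right of 0 with ITGB8 far to the left, and the 3 growth factor genes all lie left of -1.

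Of the 3 members with the highest mean FPKM, each was set beside the protein-coding genes with the closest pattern, by Euclidean distance of centred log2(CPM + 0.1) over the 6 libraries. For LTBP2 the closest included BHLHE40 and FOXP1, at distances of 0.187 and 0.202 and with log2 fold changes of 2.43 and 2.62. For LTBP3 they were TFPI2, MSN and MAGED1, at 0.0442, 0.058 and 0.0728, with log2 fold changes of 0.76, 0.74 and 0.72. For EFEMP1 they were CBX1, YY1 and SET, at 0.0536, 0.0625 and 0.0716, all within 0.05 to 0.10 on the log2 scale. With 2 groups of 3 libraries, such a distance mostly reads the size of the difference between the groups.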

How the data were processed

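Whole-number gene counts and FPKM values were deposited by the authors for 6 ARPE-19 libraries, with gene lengths and GRCh38 coordinates per the file headers and build hg38 per the submitters' processing notes. Per the labels' protocols, RNA came from a phenol reagent or a column kit and libraries from a SMARTER mRNA kit. Which aligner and counter were used, and whether counting used strand, is not given in the sources used here. The deposited FPKM were the counts divided by gene length and 1 constant per library, at 0.961 to 1.05 times its total. All 58735 genes matched GENCODE 29.

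The test on counts was that of edgeR 4.0.16 (R 4.3.3): filterByExpr, TMM scaling, glmQLFit and glmQLFTest over 13787 genes, two-sided, with Benjamini-Hochberg adjustment over all of them. CPM are scaled by the TMM factors, and each SE is the absolute log2 fold change over the root of F. The scripts were tested on simulated counts. No replicate pair agreed within sampling noise (chi-square per degree of freedom 3.73 to 11). Same-numbered libraries did not deviate together (correlations -0.05, 0.00 and 0.05), so numbers were not taken to pair them.

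The members, partner lists and cell type markers were chosen with earlier results of these data known. Named partner genes were, per list, up to 4 called genes of each direction that averaged 5 CPM or more and changed most, or all tested genes of lists with 6 or fewer tested. One gene that the rule for closest patterns names is not reported here. Other list genes given with values were chosen after their values were seen. Alternatives used DESeq2 1.42.0, limma 3.58.1 on log2 FPKM with pseudocounts of 1 and 0.1, other scalings and filters, each library left out, blocking on replicate number, a loess correction per library for the GC content of the longest GENCODE 29 transcript, and omission of chromosome 11. Python 3.11.15, pandas 2.3.3, NumPy 2.4.6 and matplotlib 3.10.9 made tables and plots. Intervals and limits from counts of 0 (3 counts) cover counting error only.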

Additional observations from a re-analysis of the deposited data

How the results depend on the processing

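Of the 13787 tested genes, 3469 were higher and 3559 lower. The 18 alternatives of the gene fit gave 2384 to 3612 genes higher and 2730 to 4051 lower. LTBP1, LTBP2, FBN1, LTBP4 and FBLN5 kept their direction and call in all 18, and LTBP3 in the 17 that keep chromosome 11. Members called lower numbered 1 under DESeq2 and 0 in the limma fit on log2(FPKM + 1) without the low-count filter. They numbered 1 with the GC trend removed, with or without the replicate block, and 1 to 2 with a library left out. In the limma fit without that filter FBN2 was at -0.40 (adjusted p = 0.0773) and FBLN2 at -0.25 (adjusted p = 0.190). FBLN2 was at -0.78 under DESeq2, -0.57 with the GC trend removed, -0.55 with GC removal and the replicate block, and -1.01 to -0.59 with a library left out. EFEMP1, not called in any fit, was at -0.0013 when only library size set the scaling and -0.11 with the GC trend removed, with or without the block, and FBLN1 ranged from -0.0314 (adjusted p = 0.911, without NC replicate 2) to 0.15 with a library left out. The cause of these shifts was not tested. The replicate block alone, with 3437 genes higher and 3552 lower, changed no member's call, and the FBN1 to FBN2 difference was 1.90 under it and 1.80 to 1.98 with a library left out.

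Enzymes that modify EGF modules had 2 members lower in place of 0 when only library size set the scaling and after GC removal, with or without the block. The latent TGF-beta list had 2 lower in place of 1 with the GC trend removed, with or without the block, and 1 to 2 with a library left out. Other fibrillin and fibulin genes had 1 higher in place of 2 with library size only, under DESeq2, in the 3 limma fits, with GC removal with or without the block, without chromosome 11, which holds EFEMP2, and 1 to 2 with a library left out. The LTBP sum had a log2 ratio of 1.27 by FPKM and 1.04 per kilobase of the longest transcript. Depth limits FBLN2 and FBLN5 most, with 13 to 54 counts per NC library.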
